A study of Drosophila melanogaster with 6 samples.

Results

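The elB and noc stretch of chromosome arm 2L was examined for binding of the DNA-binding protein GAGA factor (GAF), which the gene Trl encodes. The stretch runs over 220 kb, from 14300000 to 14520000 on FlyBase release 5, and its peaks were selected on midpoint position. The stretch itself was chosen by score, because it holds the highest-scoring peak of the deposited list. It contained 7 of the 1355 GAF peaks on 2L and of the 11713 peaks in all. Scores inside the stretch are therefore given as a description and were not tested. In order along the arm the 7 are called peaks a to g, with the highest-scoring one last.

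Binding was measured by ChIP-seq, in which DNA cross-linked to GAF is precipitated with an antibody and sequenced. There were 3 GAF ChIP libraries and 3 libraries of input DNA, which was not immunoprecipitated. Both kinds came from embryos aged 8 to 16 h, cross-linked in 1.8% formaldehyde for 15 min, and the ChIP used the rabbit polyclonal antibody KW3-Trl-D2. ChIP and input embryos shared the y cn bw sp strain and its listed alleles, which were y[1] with oc[R3.2], then Gr22b[1] and Gr22d[1], next cn[1], together with CG33964[R4.2], also bw[1] and sp[1], and finally LysC[1] and lab[R4.2] with MstProx[1] and also GstD5[1] and Rh6[1]. The authors deposited 1 peak list for all 6 libraries, so no value per library, no replicate error and no depth stands behind any peak. A score from whole embryos also cannot tell strong binding in few cells from weaker binding in many.

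The genes elB (elbow B) and noc (no ocelli) encode related zinc finger proteins of the NET family, which repress transcription together with the corepressor Groucho. They are known for roles in the branching of the embryonic tracheal system and in the growth and patterning of the eye-head, wing and leg primordia. GAF binds GA-rich DNA, keeps promoters and other regulatory elements accessible, and is often found at developmental genes that are also bound by Polycomb proteins. In the RefSeq gene table, which is of release 6 and served for names and order only, elB precedes noc on 2L with 8 genes between them. Of these, 3 code for proteins and 5 are long noncoding RNAs. The protein-coding genes are Pburs, a subunit of the hormone bursicon that hardens the cuticle, Cpr35B, a cuticle protein gene, and CG15283. The gene listed before elB is ppk, which encodes an ion channel subunit of sensory neurons, and the gene after noc is a proline transfer RNA gene, tRNA:Pro-AGG-1-1. No gene coordinate of release 5 was used here, so no peak was assigned to elB, to noc or to a gene between them.

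A pair of very strong peaks dominated the elB and noc stretch. The strongest, peak g, spanned 14489818 to 14491373, with the authors' score of 2174.57. This was rank 1 of the 11713 peaks. Its width of 1556 bp was only rank 910 in the list and rank 159 on 2L. The other strong one, peak e, spanned 14408885 to 14410927 and scored 1705.47, which was rank 44 in the list and rank 8 on 2L. At 2043 bp it was the widest peak of the stretch, with width rank 547 in the list and 99 on 2L. The midpoints of these peaks lay 80.7 kb apart. Together they made up 61.3% of the bases that peaks covered in the stretch.

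Of the other 5 peaks, peaks a and b had intermediate scores. Peak a, from 14300555 to 14301133, scored 418.33 (rank 2111 in the list and 295 on 2L) and was 579 bp wide (width rank 629 on 2L). Peak b, from 14355089 to 14355821, scored 295.08 (rank 2909 in the list and 376 on 2L) and was 733 bp wide (width rank 475 on 2L). The remaining 3 were among the weaker calls of the arm. Peak c, from 14370314 to 14370599, scored 15.56 with a width of 286 bp and ranked 1055 by score and 1152 by width on 2L. Peak d, from 14385238 to 14385527, scored 23.47 with a width of 290 bp and ranked 894 by score and 1143 by width. Peak f, from 14468516 to 14468899, scored 11.81 with a width of 384 bp and ranked 1189 by score and 943 by width.

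**Figure D1:**
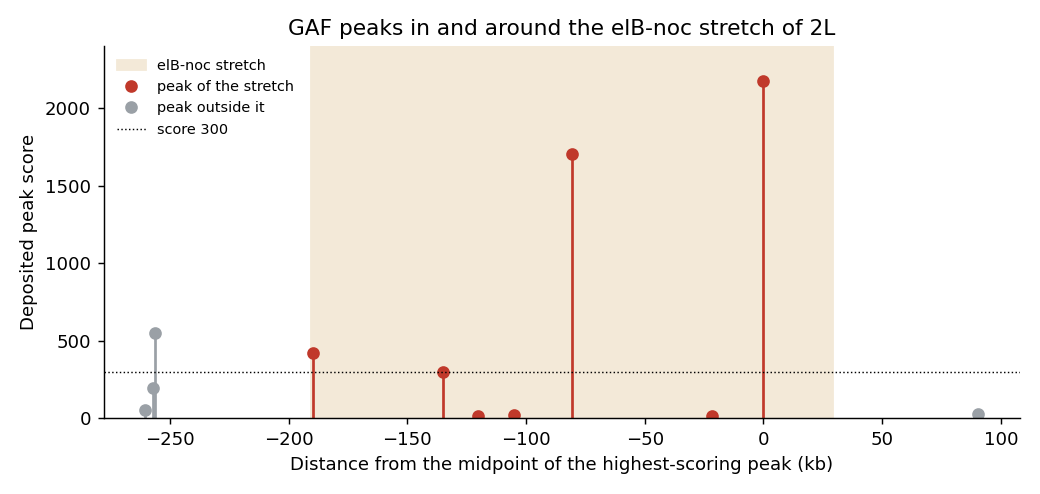
GAF peaks in and around the elB and noc stretch, by distance of the midpoint from the midpoint of the highest-scoring peak (x axis, kb) and deposited score (y axis). Red points are the 7 peaks of the stretch (shaded), grey points are peaks outside it, and the dotted line marks a score of 300; 2 peaks stand above 1500 and 3 lie below 25.

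The scores of the stretch were spread widely, from 11.81 to 2174.57. Scores of 300 or more were found for 3 of the 7 peaks, against 27.4% of the peaks on 2L and 24.4% of the whole list. Peak b lay just under that limit, so 4 peaks scored above 290 and 3 scored below 25. No member scored from 30 to under 290, a range that held 32.3% of the peaks of 2L. Those limits were drawn inside the space between the scores of peaks d and b after they were seen, so nothing is read from the absence. The median score was 295.08 in the stretch, against 62.74 on 2L and 64.7 in the whole list. With 7 peaks this median rests on single peaks. It was 159.275 without peak g, and also 159.275 when the bounds were drawn in by 20 kb on each side, which removed peak a.

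Width rose with score in the elB and noc stretch, as it did elsewhere on the arm. Spearman's rho between score and width was 0.821 over the 7 peaks and 0.813 over the other peaks of 2L. With only 7 peaks the first value is loose, so the closeness of the values says little. The order was not strict, since peak f scored lowest but was wider than peaks c and d, and peak g was narrower than peak e. Score and width come from the same peak calls. The median width was 579 bp in the stretch and 544 bp on 2L. The 3 weak peaks had widths from 286 to 384 bp, against a median of 337 bp (quartiles 262.25 and 480) for the 302 other peaks of 2L in their score range. Peaks a and b, at 579 and 733 bp, were set beside 80 other peaks of 2L between their scores, with a median width of 794.5 bp (quartiles 645.5 and 1034.75). Peak a was thus narrower than the lower quartile of its score class, and peak b lay within the quartiles.

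Peak g was narrow for a peak of its score, and peak e lay nearer the middle. Besides peaks e and g, 22 peaks of 2L scored 1500 or more, a limit set after the scores were seen, and these had a median width of 2489 bp (range 979 to 12932 bp). Of these 22, 6 were narrower than peak g and 9 were narrower than peak e. Among the 20 highest-scoring peaks of the list, only 1 of the other 19 was narrower than peak g. The other 19 had a median width of 2980 bp (range 1362 to 10007 bp).

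**Figure D2:**
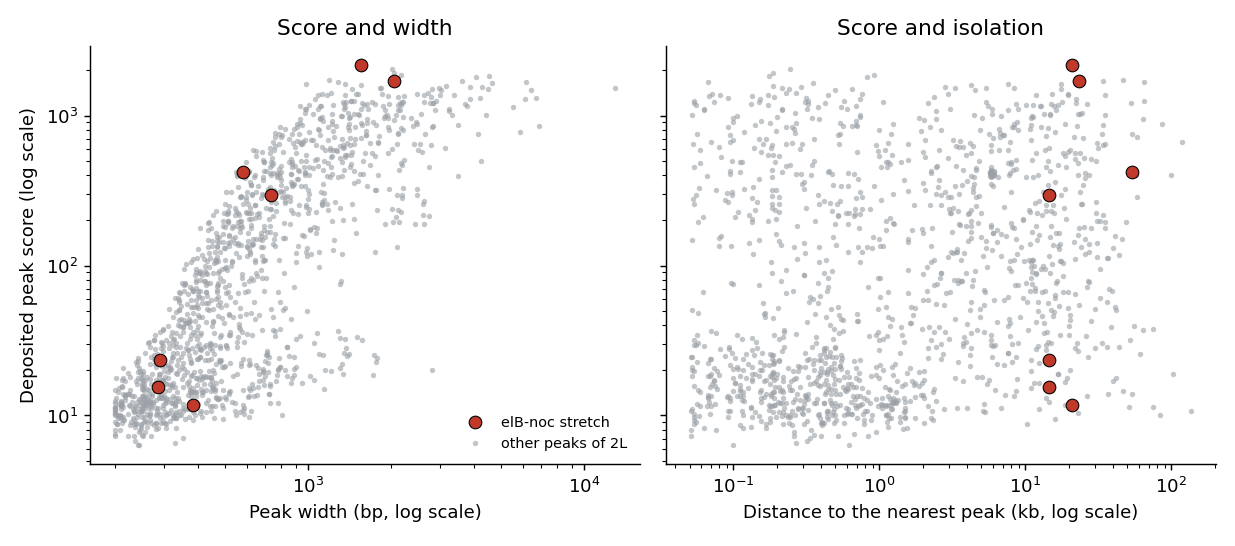
Deposited score (y axis, log scale) of each peak of 2L against its width (left, bp, log scale) and the distance to its nearest peak (right, kb, log scale). Red points are the 7 peaks of the elB and noc stretch and grey points the other peaks of 2L; on the right the 7 lie between 14.5 and 54.0 kb.

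Every one of the 7 peaks stood alone. The distance from the edge of a peak to the nearest edge of another was 14.5 to 54.0 kb for the members, with a median of 20.9 kb, against a median of 1.0 kb for all peaks of 2L. All 7 had their nearest neighbour 10 kb or more away, whereas 20.2% of the peaks of 2L did. That distance was chosen after the gaps were seen. For weak peaks the contrast in distance was wide, since the 302 other peaks of 2L in the score range of peaks c, d and f had a median nearest distance of 0.42 kb. Over the other peaks of 2L, score and nearest distance were weakly related, with a Spearman's rho of 0.268 across peaks, which share 1 set of peak calls and their neighbours.

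The gaps between the 7 peaks, in order along the arm, were 54.0 kb from a to b, 14.5 kb from b to c, 14.6 kb from c to d, 23.4 kb from d to e, 57.6 kb from e to f and 20.9 kb from f to g. Their median was 22.1 kb, whereas the 1354 gaps of 2L had a median of 4.38 kb and quartiles of 0.55 and 21.7 kb. The shortest inner gap was longer than 67.5% of the gaps of 2L. The longest ones, on each side of the block formed by peaks b to e, were longer than 91.4% and 92.1% of them. Gaps of the same order bounded the stretch. Before peak a lay 65.6 kb without a peak, and after peak g lay 89.6 kb, the 34th longest gap of the arm, where the longest was 179.0 kb. Counting both outer gaps, 4 of the 8 exceeded 50 kb, against 9.53% of all gaps on 2L.

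No peak lay just outside the bounds of the stretch. The midpoint of peak a lay 843.5 bp inside the lower bound, with a score of 418.33, and that of peak g lay 29405 bp inside the upper bound. The first peak outside on the lower side, from 14233944 to 14234926, scored 547.66 and lay 65.6 kb beyond the bound. The first on the upper side, from 14580979 to 14581261, scored 25.59 and lay 61.1 kb beyond it. Widening the stretch by 20 kb on each side added no peak.

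The wide spacing extended past the stretch in an unbroken series. From 14233944 to 14642998, a length of 409.1 kb, 10 consecutive peaks each lay 10 kb or more from the next. The series ended at close neighbours on both sides, with another peak 173 bp before its first peak and 679 bp after its last. On 2L, 2 series of this kind reached 10 peaks, this one included. The longest on the other arms had 11 peaks on X, 10 on 2R, 9 on 3L, 9 on 3R and 7 on 4. With the limit raised to the shortest gap of the stretch, 14.5 kb, the series kept its 10 peaks. The next longest on 2L then had 9, and the longest on X still had 11. The raised limit was taken from the stretch itself, so these lengths are a description.

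Among the 20 highest-scoring peaks of the list, peak g was the most isolated. Its nearest peak lay 20.9 kb away, whereas the other 19 had theirs at most 10.5 kb away, with a median of 0.41 kb. That nearest peak was the weak peak f. When neighbours below the median score of the list were disregarded, the nearest peak to g was peak e, at 78.9 kb, against a median of 5.3 kb and a maximum of 54.5 kb for the other 19. A wider set gave a less singular place. Of the 131 arm peaks that scored 1500 or more, peaks e and g included, 14 had a nearest peak at least as far away as peak g did and 12 at least as far as peak e did. In that set, 17.6% had their nearest peak 10 kb or more away, and the median distance was 0.83 kb.

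**Figure D3:**
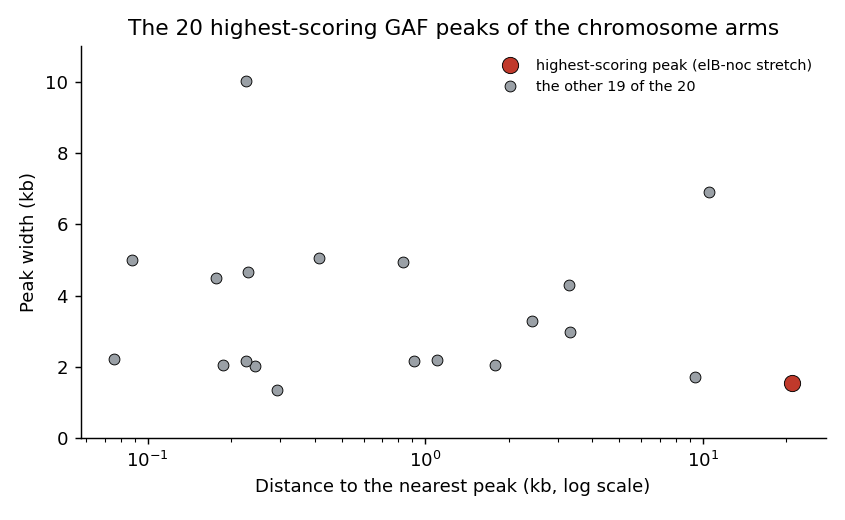
Width (y axis, kb) and distance to the nearest peak (x axis, kb, log scale) of the 20 highest-scoring GAF peaks. The red point is the peak of the elB and noc stretch, at 20.9 kb and 1556 bp, and the grey points are the other 19, none of them farther than 10.5 kb from its neighbour.

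The elB and noc stretch lay below the median of other stretches of the arm in peak number and covered bases, but not below their lower quartiles. Against it were set 103 other stretches of 220 kb, laid end to end over 2L from its bounds. The stretch held 7 peaks, whereas the others held a median of 12 (quartiles 7 and 16, range 2 to 92). Fewer peaks were found in 22 of the 103 (21.4%), the same number in 5 and more in 76. When the stretch and the others were widened by 20 kb on each side, 9.3% of the others held fewer peaks. This was the lowest share under any alternative, and the highest was 26.2%. Peaks covered 5871 bp of the stretch, or 2.67% of its length, against 4.84% over the span of 2L. The other stretches had a median of 8737 bp covered (quartiles 5206.5 and 13004), and 29.1% of them had less. That share was 18.6% with the widened bounds and ranged from 18.6 to 35% over all alternatives. The number of peaks scoring 300 or more was 3 in the stretch and had a median of 3 in the others. The median gap of 22137.5 bp in the stretch exceeded that of 83.5% of the others. Gap length and peak number are linked, so this does not set the stretch apart from others with few peaks. The 5 others that also held 7 peaks had median gaps of 424.5, 19599.5, 19875.5, 24408.5 and 32675 bp. Most of the 27 others with 7 or fewer peaks had a longer median gap than the elB and noc stretch.

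**Figure D4:**
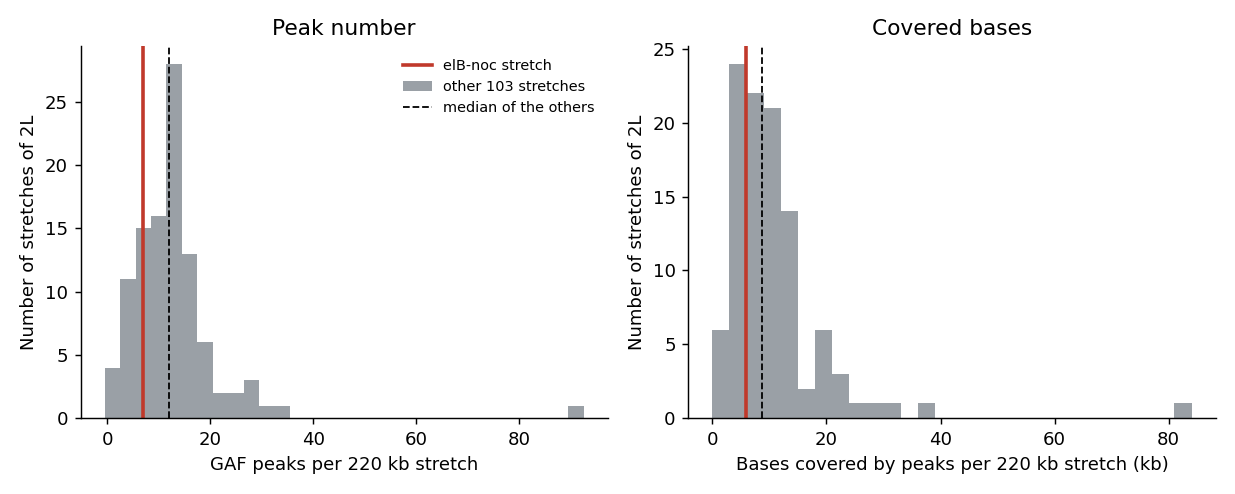
Number of GAF peaks (left) and bases covered by peaks (right, kb) in stretches of 220 kb on 2L; the y axis counts stretches. The red line marks the elB and noc stretch with 7 peaks and 5871 bp, the grey bars the other 103 stretches and the dashed line their median.

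Peak number and highest score were set side by side over the other stretches of 2L. The elB and noc stretch was chosen for its score, so its own high score with few peaks is a description. Of the 27 other stretches with 7 or fewer peaks, 2 held a peak of 1500 or more, against 18 of all 103 others. The highest scores of the 27 had a median of 651.58. The 2 stretches with a peak of 1500 or more among the 27 held 5 and 6 peaks, with highest scores of 1675.44 and 1688.54. Conversely, 18 of the other stretches held a peak of 1500 or more, and they contained a median of 14 peaks (range 5 to 28). None of the 18 had fewer bases covered than the elB and noc stretch, and their median was 14084 bp. Across the 103 stretches, Spearman's rho between peak number and highest score was 0.326. The highest score of a stretch is a maximum over its own peaks, so these measures are linked.

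Of the other 103 stretches, 3 shared with the elB and noc stretch a second peak of 1500 or more. This count depends on where the bounds fall, and taken by distance such neighbours were more common, since 8 of the 22 other peaks of 1500 or more on 2L lay within 100 kb of another. The first, from 12540001 to 12760000, held 26 peaks with a median gap of 0.48 kb, and its 2 highest peaks scored 1637.98 and 1608.33 at 74.0 kb from each other. The next, from 16500001 to 16720000, held 28 peaks with a median gap of 1.3 kb, 3 of them of 1500 or more, and its 2 highest lay 182.9 kb from each other. The last, from 21780001 to 22000000, held 11 peaks with a median gap of 6.73 kb, and its 2 highest scored 1714.6 and 1612.19 at 70.9 kb from each other. The 80.7 kb between peaks g and e lay within the range of these 3 distances, and the elB and noc stretch held fewer peaks than each of the 3.

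Centring each stretch on its strongest peak gave the same contrast. In the 220 kb centred on peak g there were 5 peaks, with 4556 bp covered and a median gap of 40.47 kb. The 220 kb centred on the next 5 highest-scoring peaks of 2L held 10, 13, 15, 15 and 14 peaks, in order of falling central score. Their covered bases ranged from 8716 to 22137 bp and their median gaps from 1.06 to 8.06 kb. Each of these 5 central peaks, scoring from 1815.97 to 2039.57, had a neighbour between 0.18 and 0.91 kb away. The contrast depends on ending at 5 peaks, because the next 4 outside the stretch differed widely. Those scoring 1714.6, 1688.54 and 1675.44 had their nearest peaks 47.0, 33.9 and 65.0 kb away, and the one scoring 1677.03 had its nearest peak 67 bp away. Over all 24 peaks of 1500 or more on 2L, peak e ranked 4 and peak g ranked 5 by that distance, and 5 of the 22 others (22.7%) had their nearest peak 10 kb or more away. Peaks of 300 or more numbered 2 around peak g, itself included, and from 2 to 7 around the other centres.

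**Figure D5:**
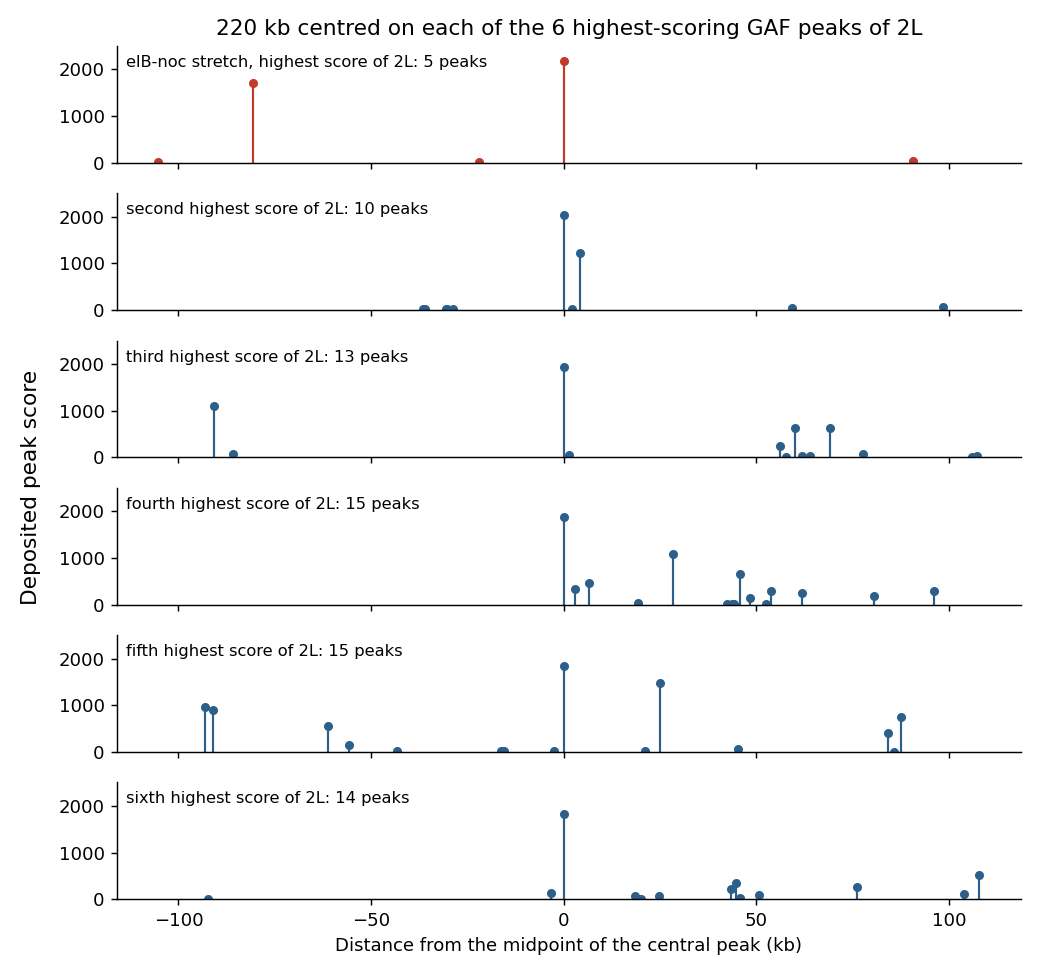
Deposited score (y axis) of every GAF peak in the 220 kb centred on each of the 6 highest-scoring peaks of 2L, by distance from the central peak (x axis, kb). The top panel (red) is centred on the strongest peak of the elB and noc stretch and shows 5 peaks; the blue panels, in order of falling central score, show 10, 13, 15, 15 and 14.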

How the data were processed

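The file used is 1 peak list for the whole series. It was made with MACS2, BWA and CASAVA (1.7.0.2 and also 1.7.0.3) on build BDGP5, per the submitters' processing notes. Per the file headers, coordinates are on FlyBase release 5. The score is the authors' deposited value per peak. Its scale, how the 6 libraries were combined and the threshold of the calls are not given in the labels or the file, and the depth is unknown. Starts are printed counted from 1, since the smallest in the file was 0.

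Ranks count from the highest value, and gaps run from edge to edge. Other stretches lay wholly within the span of 2L and took peaks by midpoint. The stretch and the measures were chosen with earlier results of these data known, so no test was run. Peaks of 300 or more and the widest were to be named singly; the other 4 are also named, since the selection asks for each peak. Alternatives were joining of peaks under 500 bp apart, a score filter, other bounds and other sets of stretches. Peak number, covered bases, median gap, joining and the counts of other stretches were checked on 20 simulated lists. Their peaks were evenly spaced within each stretch, unlike these data. Ranks, nearest distances, unbroken series and centred stretches were not checked in this way. Sequences and gene positions of release 5 were not used here. The software was pandas 2.3.3 with numpy 2.4.6 and scipy 1.17.1 under Python 3.11.15, and figures used matplotlib 3.10.9.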

Additional observations from a re-analysis of the deposited data

How the results depend on the processing

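Over 8 results, 46 values under alternatives were computed, and 38 stayed within 1.5 times or, for percentiles, within the exact 95% binomial interval of the value reported. With peaks under the median score of the whole list removed, the stretch kept 4 peaks by construction, with a median gap of 53955 bp, a median score of 1061.9 and a median width of 1144.5 bp. The median score was 159.275 without the highest-scoring peak and 159.275 with the bounds drawn in by 20 kb, since each removes 1 of the 4 high scores. With bounds widened by 20 kb, 9.3% of other stretches held fewer peaks and 18.6% had fewer bases covered, because the longer stretch gained no peak. Over all alternatives these shares ranged from 9.3 to 26.2% and from 18.6 to 35%. Stretches of all 6 arms, and stretches laid from bounds shifted by 110 kb, were chosen after the data were examined. No paired analysis was possible because each peak has 1 score for all libraries together, and leaving out a replicate was likewise not possible. With unknown depth, the weakest peak that could have been found in the long gaps cannot be stated.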
